A study of Mus musculus with 18 samples.

Results

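The genes of heme uptake, transport and breakdown were followed in BV2 cells, a virally immortalised mouse microglial line, by sequencing of nuclear and cytoplasmic RNA. The 9 genes, taken by symbol from 55487 gene identifiers in the count table, were Lrp1 and Cd163 (uptake of heme and hemoglobin carried by plasma proteins), Slc48a1 and Flvcr1 (heme transport across membranes), Hmox1 and Hmox2 (heme oxygenases), Blvra and Blvrb (biliverdin reductases) and Bach1 (a heme-sensing transcription factor). Both fractions were taken from cells at 0 h, which received no oxyhemoglobin, and from cells given 10 µM oxyhemoglobin, the oxygen-bound form of hemoglobin, for 12 or 24 h. All cells grew in medium with fetal serum, and no genetic change separated the groups. Each of the 6 groups had 3 libraries, 18 in all, and the labels do not say whether the 3 came from separate cultures. Each deposited value is the mean over the 3 libraries of a group, so no SD and no test across libraries is given. The 95% intervals below cover counting error only. No untreated group was kept for 12 or 24 h, so treatment and time in culture cannot be told apart.

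Heme freed from hemoglobin is toxic to cells, and microglia and macrophages clear it after a bleed in the brain. Hemoglobin bound to haptoglobin enters through CD163, and heme bound to hemopexin enters through LRP1. SLC48A1 (also called HRG1) moves heme from the endolysosome to the cytosol, and FLVCR1 exports it from the cell. Heme oxygenases open the heme ring and release iron, carbon monoxide and biliverdin, which biliverdin reductases turn into bilirubin. BACH1 represses Hmox1 and other antioxidant genes until heme binds it. The freed DNA elements are then open to NRF2, an activator that pairs with the same small MAF proteins.

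In these cells Hmox1 RNA was 4.79-fold higher in the nucleus and 3.42-fold higher in the cytoplasm after 12 h, and it was as high at 24 h. Slc48a1 was 2.92-fold higher in the nucleus at 12 h and 3.90-fold higher at 24 h, with smaller differences in the cytoplasm. Cytoplasmic Lrp1 and Bach1 RNA lay below their untreated level at both times, while their nuclear log2 ratios lay between −0.03 and 0.18. Blvra, the main biliverdin reductase of adult tissue, differed from its untreated level by at most 1.32-fold. Cd163 had no read in any group.

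Over 3 libraries the nuclear groups held 14652566 to 16031875 counts and the cytoplasmic groups 16537318 to 22379595. Of 12 microglia and macrophage markers, 10 to 12 had reads in each group, among them Spi1 and Ptprc, whereas P2ry12 was at 0 in all cytoplasmic groups. Only 10 of the 12 in the nucleus and 6 in the cytoplasm reached the minimum level for a comparison. In each comparison with 0 h, 2 of these were called higher and 2 lower, beside 5.73% to 11.9% of all genes in either direction. Summed over that list, the markers came to 821 CPM (counts per 1000000 counts) in the nucleus at 0 h, 550 at 12 h and 477 at 24 h, and to 332 to 393 CPM in the cytoplasm. The 4 astrocyte markers summed to at most 1.31 CPM with Aqp4 at 0, the 4 neuron markers to at most 0.409 CPM with Snap25 at 0, and the 4 endothelial markers to 0.581 to 6.74 CPM. The 4 oligodendrocyte markers summed to 4.54 to 13.4 CPM with Mog and Mag at 0, and Mbp was at a cytoplasmic log2 ratio of −1.06 at 12 h and 0.57 at 24 h. The 11 erythroid markers found summed to 12.1 to 15.0 CPM in the nucleus and to at most 1.69 CPM in the cytoplasm. In each nuclear group 4 of them had reads, and most were from Alas2, also a heme synthesis gene. Its nuclear mean counts were 56.0 to 71.0, within list sums of 64.7 to 79.3. The 4 fibroblast markers, 3 of them with reads, summed to 6.05 CPM in the cytoplasm at 12 h, with Col1a1 at a mean count of 15.0 and Col3a1 at 13.3, and to at most 1.26 CPM in the other groups. Hbb-bt, a beta globin gene, had a mean count of 3.00 in that same group and 0 elsewhere, and the part of these RNAs in the results at 12 h was not tested. At 0 h, 3 of 5 compared RNAs known as nuclear were called nuclear (Malat1 at a log2 nuclear-to-cytoplasmic ratio of 3.07) and 1 cytoplasmic, Rpph1. Of 6 mRNAs known as cytosolic 4 were called cytoplasmic (Eef1a1 at −4.42) and 2 nuclear, Gapdh and Ldha. In bulk RNA of this kind, fewer cells that express a gene and less RNA per cell cannot be told apart.

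How much of a gene lies in a single transcript differed between the 9 genes. Across protein-coding genes the deposited counts varied with the share of a gene's exonic bases that lie in only 1 annotated transcript. Where that share was 0, 0.322% of 311 genes had a mean of 10 counts or more in untreated cytoplasm, against 8.05% up to a share of 10%, 41.2% from 20 to 40% and 56.2% of 3765 genes from 60 to 80%. This share of genes did not rise above that: it was 55.1% from 80 to 100% and 19.3% of the 3614 genes whose every base is in 1 transcript. The median count per exonic kilobase, among genes with a mean of 1 count or more, did rise further. In untreated cytoplasm it was 41.7 from 60 to 80%, 103 from 80 to 100% and 45.4 where every base is in 1 transcript. The rule by which reads over several transcripts were counted is not given in the sources used here. In GENCODE M21 on GRCm38 that share was 61.9% to 70.1% for Lrp1, Slc48a1, Hmox1, Blvra, Blvrb and Bach1. It was 24.9% for Flvcr1, 18.6% for Cd163 and 11.8% for Hmox2, which are 1291, 1018 and 262 bases. For Blvrb, 74.1% of the single-transcript bases lay in retained-intron transcripts, which keep an intron and do not code for the protein. That portion was 15.7% for Hmox1, 7.56% for Bach1 and 0 for Slc48a1.

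**Figure D1:**
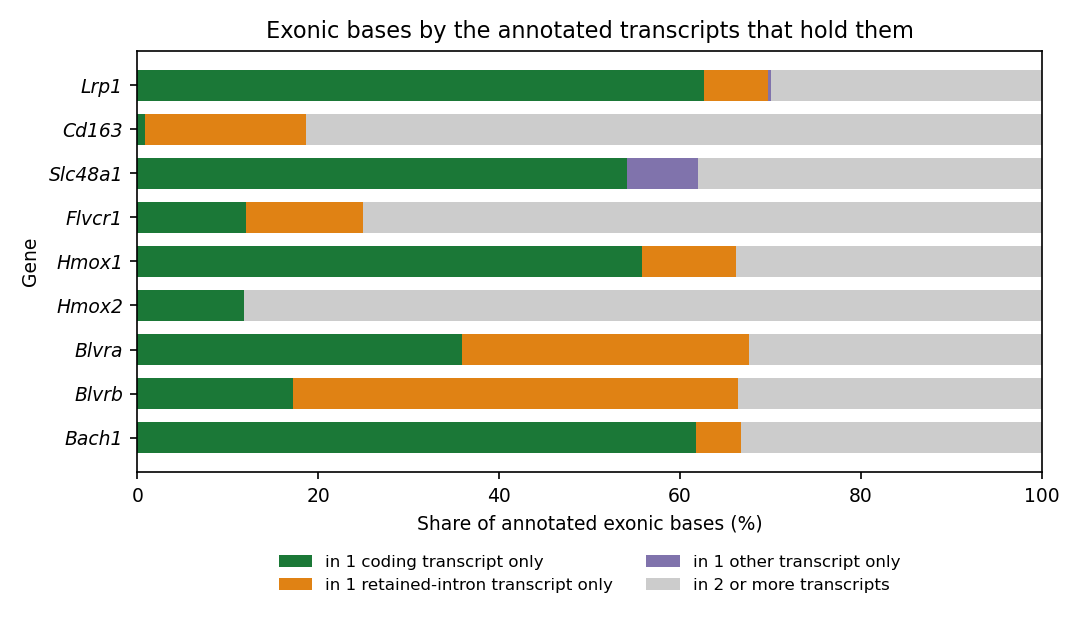
Share of each gene's annotated exonic bases (%, GENCODE M21) that lie in only 1 coding, 1 retained-intron or 1 other transcript, or in 2 or more transcripts. The bars for Hmox2, Cd163 and Flvcr1 are mostly bases in 2 or more transcripts, and Blvrb's single-transcript bases are mostly in retained-intron transcripts.

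The Hmox1 mRNA shows which letters these are. Of the 867 coding bases of its coding transcript on GRCm38, 275 lie in no other annotated transcript, and they form 2 runs at the ends of the coding sequence. They are shown because they are coding sequence of the heme oxygenase mRNA that its retained-intron transcript does not hold. Capitals mark single-transcript bases, read 5′ to 3′ on the plus strand after splicing, and the lower-case bases are the shared stretch before the second run. The first run is coding bases 1 to 144 within chr8:75093750-75095976, and the second is bases 737 to 867 at chr8:75099886-75100016.
Hmox1 first run: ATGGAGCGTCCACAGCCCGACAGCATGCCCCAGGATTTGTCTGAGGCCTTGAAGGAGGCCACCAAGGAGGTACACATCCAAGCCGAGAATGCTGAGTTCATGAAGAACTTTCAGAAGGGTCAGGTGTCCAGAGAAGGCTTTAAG
Hmox1 second run: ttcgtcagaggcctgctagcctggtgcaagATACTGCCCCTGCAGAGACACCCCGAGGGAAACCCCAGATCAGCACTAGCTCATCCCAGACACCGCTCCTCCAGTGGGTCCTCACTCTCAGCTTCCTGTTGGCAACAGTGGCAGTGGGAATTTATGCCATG

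Per length, Lrp1 and Hmox1 stood highest before treatment. In the cytoplasm at 0 h, levels in CPM (by total counts) per exonic kilobase were 249 for Hmox1, 92.9 for Lrp1, 47.1 for Bach1, 41.1 for Blvra and 30.6 for Slc48a1. On the same per-length scale Blvrb was at 1.91, Flvcr1 at 1.37 and Hmox2 at 0.161. In the nucleus at 0 h the order was Lrp1 (102), Hmox1 (80.4), Blvra (30.7), Bach1 (16.9), Flvcr1 (12.8), Slc48a1 (4.64), Hmox2 (2.77) and Blvrb (2.75). Hmox2 and Blvrb changed places there on the deposited TPM values (transcripts per 1000000, a level per length), where they were at 1.96 and 2.88. Dividing by the single-transcript bases alone moved Flvcr1 from rank 5 to rank 3 in the nucleus, and kept Hmox1 first and Lrp1 second in the cytoplasm. After 24 h the per-length level of Hmox1 was 889.8 in the cytoplasm and 329 in the nucleus, above Lrp1 at 56.1 and 92.9.

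**Figure D2:**
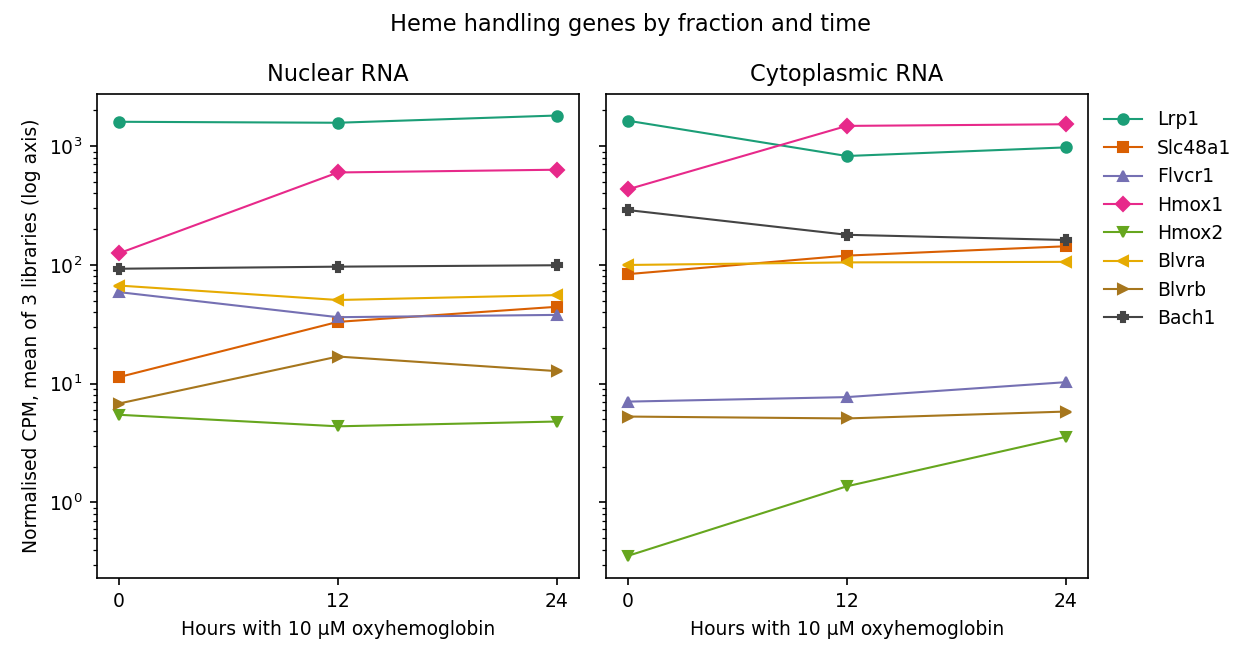
Normalised CPM (mean of 3 libraries, log axis) of the 8 genes with reads against hours with 10 µM oxyhemoglobin, in nuclear (left) and cytoplasmic (right) RNA, each fraction scaled separately. Hmox1 and Slc48a1 were higher at 12 and 24 h than at 0 h in both panels, and Hmox2 went from 0.355 to 3.56 CPM in the cytoplasm.

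The heme uptake receptor Lrp1 (ENSMUSG00000040249, chr10:127538161-127621148, minus strand) encodes a large endocytic receptor for hemopexin-bound heme and many other ligands. Its nuclear level was 1602 normalised CPM at 0 h, 1572 at 12 h and 1809 at 24 h, and its cytoplasmic level was 1635, 825 and 975. The nuclear values lay close together, and both treated cytoplasmic groups lay well below the untreated one. The cytoplasmic log2 ratio to 0 h was −0.99 at 12 h (interval −1.02 to −0.96) and −0.75 at 24 h (−0.77 to −0.72), and the nuclear one was −0.03 and 0.18. A call of higher or lower needed a 2-fold ratio and an interval without 0, so Lrp1 was just short of a call at 12 h. Across the other scalings of the counts that ratio ran from −1.05 to −0.99, on either side of 2-fold. On the deposited TPM values, as log2(TPM + 1), it was −1.73 at 12 h, while the median over all genes moved by −0.49 there. Within the Lrp1 gene lies Gm16217 on the opposite strand.

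Cd163 (ENSMUSG00000008845, chr6:124304656-124330527), the hemoglobin-haptoglobin receptor of macrophages, had 0 reads in all 6 groups. A count of 0 allows up to 3 reads over the 3 libraries, or 0.134 to 0.205 CPM. Of its 1018 single-transcript bases, 974 lie in a retained-intron transcript and 44 in a coding one, so a count of 0 does not show that Cd163 mRNA was absent.

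Slc48a1 (ENSMUSG00000081534, chr15:97778520-97792692) had the second largest nuclear difference of the 9 genes. Its nuclear level was 11.4 normalised CPM at 0 h, 33.1 at 12 h and 44.4 at 24 h, and its cytoplasmic level was 83.6, 119.6 and 143. Each treated group lay above the untreated group of its fraction, and 24 h lay above 12 h. The nuclear log2 ratio to 0 h was 1.54 at 12 h (interval 1.30 to 1.79) and 1.97 at 24 h (1.73 to 2.21), both called higher. The cytoplasmic ratio was 0.52 (0.42 to 0.61) and 0.78 (0.69 to 0.86), under 2-fold at both times. On log2(TPM + 1) values the cytoplasmic ratio at 12 h had the other sign, −0.24, beside a median of −0.51 over all genes. The nuclear one was 1.12 and 1.21 in that unit. The 3′ end of Slc48a1 overlaps Hdac7 on the opposite strand, and the strand setting of the counting is not given in the sources used here.

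Flvcr1 (ENSMUSG00000066595, chr1:191005847-191026158, minus strand), the heme exporter, lay the other way in the nucleus. It was at 58.9, 36.3 and 37.9 normalised CPM in the nucleus at 0, 12 and 24 h, and at 7.06, 7.70 and 10.3 in the cytoplasm. Both treated nuclear groups lay below the untreated one, and the cytoplasmic group at 24 h was the highest of its fraction. The nuclear log2 ratio was −0.70 (−0.85 to −0.55) at 12 h and −0.64 (−0.79 to −0.48) at 24 h, and the cytoplasmic one 0.13 and 0.54, all under 2-fold. On log2(TPM + 1) values these were −0.85, −1.06, −0.34 and −0.03. In that unit the cytoplasmic median over all genes was −0.51 at 12 h and −0.40 at 24 h. Cytoplasmic Flvcr1 thus stayed above the median gene, though its sign is not fixed. Its 5′ end overlaps the antisense gene A230020J21Rik, so the split of reads between them is uncertain.

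Hmox1 (ENSMUSG00000005413, chr8:75093621-75100589), the inducible heme oxygenase, differed most in the nucleus. Its nuclear level was 125 normalised CPM at 0 h, 599.7 at 12 h and 632 at 24 h, and its cytoplasmic level was 433, 1479 and 1527. In both fractions the treated groups lay close to each other and far above the untreated one. The nuclear log2 ratio to 0 h was 2.26 (interval 2.19 to 2.33) at 12 h and 2.34 (2.27 to 2.41) at 24 h. The cytoplasmic ratio was 1.77 (1.74 to 1.81) and 1.82 (1.79 to 1.85). On log2(TPM + 1) values the nuclear ratio was 1.96 and 1.71 and the cytoplasmic one 1.01 and 1.22, still past 2-fold. Between 12 and 24 h it moved by 0.08 in the nucleus and 0.05 in the cytoplasm. Of the gene's single-transcript bases, which include the coding runs printed above, 977 of 1159 belong to the coding transcript.

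Hmox2 (ENSMUSG00000004070, chr16:4726361-4766742), the constitutive heme oxygenase, had few reads. Summed over 3 libraries, its cytoplasmic reads numbered 8 at 0 h, 22 at 12 h and 71 at 24 h, and its nuclear reads 90, 68 and 70. The cytoplasmic groups stood in order of time on the normalised scale (0.355, 1.37 and 3.56 CPM), whereas the nuclear groups (5.47, 4.37 and 4.80 CPM) did not. Of the cytoplasmic groups only that at 24 h reached the minimum level for a comparison. The cytoplasmic log2 ratio to 0 h was 1.94 (interval 0.72 to 3.32) at 12 h and 3.33 (2.27 to 4.59) at 24 h, both called higher, and 1.38 (0.67 to 2.14) at 24 h against 12 h. On log2(TPM + 1) values these ratios were 0.25, 0.87 and 0.62, no longer past 2-fold. On log2(TPM + 0.1) values the ratio to 0 h was 0.85 at 12 h and 2.19 at 24 h, the latter still past 2-fold. The cytoplasmic TPM of Hmox2 was 0.172 at 0 h and 1.14 at 24 h, so adding 1 narrows the ratio. The gene has 262 single-transcript bases, none of them coding, and the gene overlaps Cdip1 on the opposite strand and Gm15859.

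The biliverdin reductases differed little in the cytoplasm. Blvra (ENSMUSG00000001999, chr2:127070665-127097084) was at 66.9, 50.6 and 55.7 normalised CPM in the nucleus and at 99.8, 105 and 106 in the cytoplasm. Its nuclear log2 ratio was −0.40 (−0.54 to −0.27) at 12 h and −0.27 (−0.40 to −0.13) at 24 h, and its cytoplasmic ratio 0.07 and 0.09, or −0.67 and −0.50 on log2(TPM + 1) values. In that unit the cytoplasmic median over all genes was −0.51 and −0.40. Blvrb (ENSMUSG00000040466, chr7:27447978-27466144), which also reduces flavins, was at 6.80, 16.9 and 12.7 normalised CPM in the nucleus. In the cytoplasm Blvrb was at 5.28, 5.09 and 5.82 CPM. The nuclear Blvrb groups after treatment lay above the untreated one and the 3 cytoplasmic groups lay close together. Its nuclear log2 ratio was 1.31 (0.99 to 1.65) at 12 h, called higher, and 0.91 (0.56 to 1.26) at 24 h. On log2(TPM + 1) values the 12 h ratio was 0.82 and on log2(TPM + 0.1) values 1.00, just under 2-fold in both.

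Bach1 (ENSMUSG00000025612, chr16:87698945-87733346), the repressor, had less cytoplasmic RNA after treatment, by under 2-fold. Its cytoplasmic level was 289 normalised CPM at 0 h, 179 at 12 h and 162 at 24 h, and its nuclear level was 92.8, 96.6 and 99.3. Both treated cytoplasmic groups lay below the untreated one, and the nuclear groups lay close together. The cytoplasmic log2 ratio was −0.69 (−0.76 to −0.63) at 12 h and −0.84 (−0.90 to −0.78) at 24 h, or −1.43 and −1.41 on log2(TPM + 1) values. The cytoplasmic median over all genes was −0.51 and −0.40 in that unit. The nuclear ratio was 0.06 (−0.05 to 0.16) and 0.10 (−0.01 to 0.20), intervals that hold 0. By total counts the nuclear Bach1 and Lrp1 ratios at 24 h were −0.21 and −0.13, so they have no fixed sign. The nuclear median over all genes was −0.32 there.

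**Figure D3:**
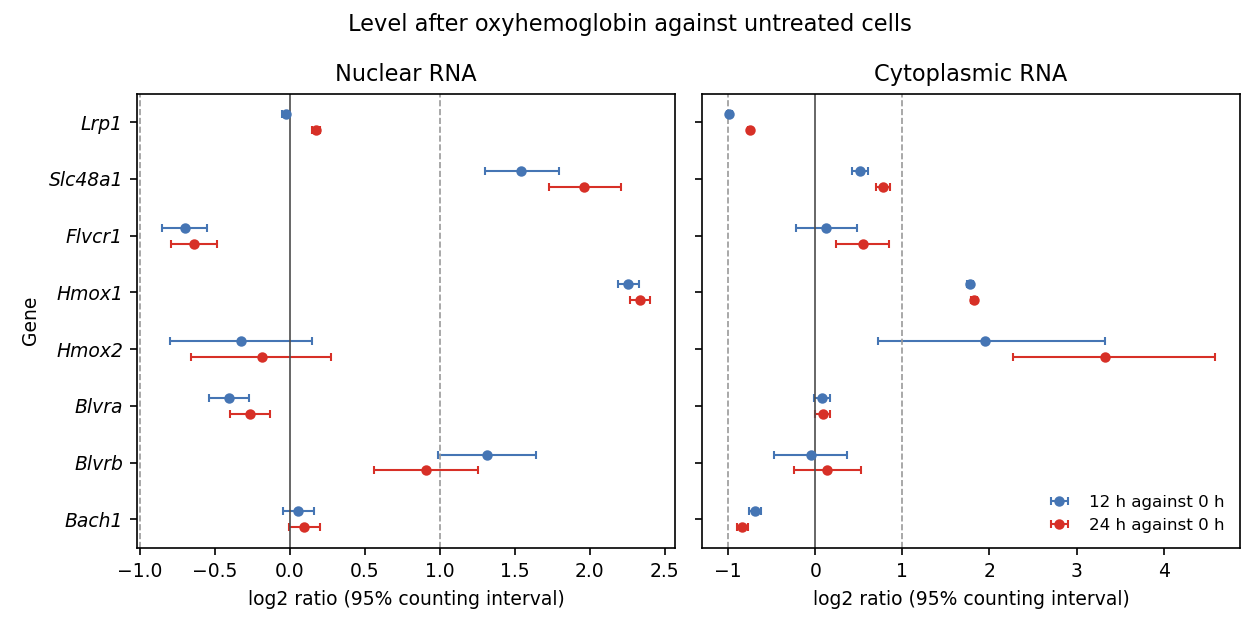
Log2 ratio of each gene at 12 h (blue) and 24 h (red) against 0 h in nuclear (left) and cytoplasmic (right) RNA, with 95% counting intervals. Dashed lines mark 2-fold. Hmox1 lies past 2-fold in all 4 comparisons, Slc48a1 past it in the nucleus and Hmox2 past it in the cytoplasm.

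Of the 9 genes 8 could be compared, all but Cd163, and each count of calls is set beside the share over all genes. At 12 h, 3 of the 8 were called higher in the nucleus (Hmox1, Slc48a1 and Blvrb) and 0 lower, against 7.66% higher and 6.89% lower of all 17295 genes compared. At 24 h it was 2 higher (Hmox1 and Slc48a1) and 0 lower, against 7.93% and 5.73%. In the cytoplasm 2 of 8 (Hmox1 and Hmox2) were higher and 0 lower at 12 h, against 11.9% and 8.65% of 11751 genes, and the same 2 at 24 h, against 11.3% and 5.78%. Between 12 and 24 h no gene of the 8 was called in the nucleus, against 1.95% higher and 1.12% lower of all genes. In the cytoplasm 1 of 8 (Hmox2) was higher at 24 h than at 12 h, against 3.29% higher and 1.66% lower. Cytoplasmic Hmox2 reached the level needed for a comparison (1.54 CPM by total counts) only at 24 h. It was at 0.357 CPM at 0 h, 1.33 at 12 h and 3.63 at 24 h, so the filter favours its higher calls. The median log2 ratio of the 8 genes was 0.02 in the nucleus and 0.10 in the cytoplasm at 12 h, beside medians of −0.01 and −0.02 over all genes. The comparisons at 12 and 24 h share the 0 h group.

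Untreated cells kept the RNA of these genes in different places. Nuclear-to-cytoplasmic ratios depend on how the fractions are scaled, so each gene is given by its percentile among all compared genes, from the most cytoplasmic (0) to the most nuclear (100). At 0 h Slc48a1 was at the 1.70th percentile, Hmox1 at 9.41, Bach1 at 11.0, Blvra at 23.5, Lrp1 at 29.7 and Blvrb at 34.1. Flvcr1 (60.4) and Hmox2 (72.2) lay on the nuclear side. The log2 ratio was −4.09 for Slc48a1, −2.99 for Hmox1 and 1.86 for Flvcr1, beside a median of 0.83 over all 17852 genes. At 0 h 2 of 8 genes were called nuclear and 5 cytoplasmic, against 48.1% and 32.2% of all genes. At 12 h it was 1 and 4 of 8, against 45.4% and 30.2%, and at 24 h 0 and 4, against 44.8% and 30.0%. Genes with over 50% of their single-transcript bases in retained-intron transcripts had a median log2 ratio of 1.18 at 0 h (3629 genes), and those with none −1.17 (4529 genes). Flvcr1 (51.8%) and Blvrb (74.1%) belong to the first kind and Slc48a1 and Hmox2 to the second.

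**Figure D4:**
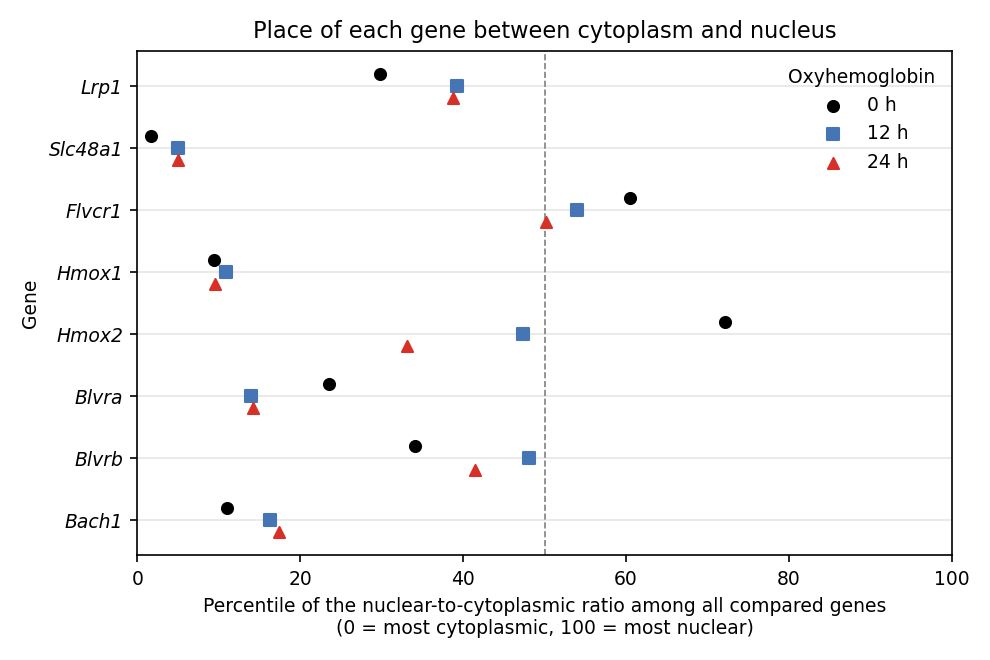
Percentile of each gene's nuclear-to-cytoplasmic ratio among all compared genes at 0, 12 and 24 h (0 the most cytoplasmic, 100 the most nuclear, dashed line at the middle). Slc48a1, Hmox1 and Bach1 stay at the cytoplasmic end, and Hmox2 moves from 72.2 to 33.1.

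After treatment the balance between nucleus and cytoplasm moved in opposite directions for different genes. The log2 nuclear-to-cytoplasmic ratio of Slc48a1 was 1.07 higher at 12 h than at 0 h (interval 0.81 to 1.32) and 1.20 higher at 24 h (0.95 to 1.45), or 0.87 and 0.86 by total counts, under 2-fold. That of Blvrb was 1.41 higher at 12 h (0.89 to 1.92) and 0.78 higher at 24 h. For Hmox2 the change was −2.23 at 12 h (interval −3.48 to −0.97) and −3.50 at 24 h (−4.65 to −2.36). For Flvcr1 it was −0.79, under 2-fold, and −1.17 (−1.50 to −0.83). Lrp1 was 1.00 and 0.93 higher and Bach1 0.79 and 0.95 higher, under 2-fold, and Hmox1 was 0.53 higher at both times. Of the 6 cytosolic mRNAs, 2 were called higher in this ratio at 12 h, Eef1a1 at 1.71 and Tubb5 at 1.35. Actb was at 0.78, Pkm at 0.76, Gapdh at 0.27 and Ldha at −0.75. The nuclear RNAs summed to 2118 CPM in the cytoplasmic fraction at 0 h, 2456 at 12 h and 4332 at 24 h. Their part in the changes of the 8 genes was not tested. At 12 h 2 of 8 genes were called higher and 1 lower, against 6.90% and 7.44% of all genes, and at 24 h 1 and 2 of 8, against 5.79% and 9.18%. The median over all genes was 0.14 at 12 h and 0.05 at 24 h.

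The sequence just before the start of these genes was searched for TGACNNNGC, the core of the antioxidant element that NRF2 and BACH1 bind with small MAF proteins, on both strands of the 250 bases upstream. RefSeq windows on GRCm38.p6 were at hand for 7 of the 9 genes (Lrp1, Cd163, Flvcr1, Hmox2, Blvra, Blvrb and Bach1), 10 windows in all, and none for Hmox1 and Slc48a1. The letters occurred in 3 of the 10 windows, for Blvra, Flvcr1 and Lrp1, and in 10.2% of all 32851 windows. They are printed as the windows with a match, beside that of Blvrb, which was called higher in the nucleus and has none, each 5′ to 3′ in the gene's direction with the match in capitals. The windows are chr2:127070407-127070656 (Blvra, plus strand), chr1:191026191-191026440 (Flvcr1, minus strand), chr10:127621149-127621398 (Lrp1, minus strand) and chr7:27447728-27447977 (Blvrb, plus strand).
Blvra promoter: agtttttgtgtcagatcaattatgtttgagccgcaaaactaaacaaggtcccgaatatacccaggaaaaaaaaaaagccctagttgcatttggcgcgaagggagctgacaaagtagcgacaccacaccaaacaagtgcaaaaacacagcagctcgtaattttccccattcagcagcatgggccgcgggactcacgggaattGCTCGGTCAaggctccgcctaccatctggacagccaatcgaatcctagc
Flvcr1 promoter: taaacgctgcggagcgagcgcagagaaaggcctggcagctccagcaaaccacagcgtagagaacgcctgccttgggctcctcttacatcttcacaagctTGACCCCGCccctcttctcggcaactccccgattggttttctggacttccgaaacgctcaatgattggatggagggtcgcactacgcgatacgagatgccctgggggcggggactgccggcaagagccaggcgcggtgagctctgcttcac
Lrp1 promoter: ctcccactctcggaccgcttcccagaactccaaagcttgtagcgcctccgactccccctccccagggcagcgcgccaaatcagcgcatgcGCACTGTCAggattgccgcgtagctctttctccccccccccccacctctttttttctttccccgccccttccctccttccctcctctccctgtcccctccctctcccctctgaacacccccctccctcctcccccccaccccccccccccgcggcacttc
Blvrb promoter: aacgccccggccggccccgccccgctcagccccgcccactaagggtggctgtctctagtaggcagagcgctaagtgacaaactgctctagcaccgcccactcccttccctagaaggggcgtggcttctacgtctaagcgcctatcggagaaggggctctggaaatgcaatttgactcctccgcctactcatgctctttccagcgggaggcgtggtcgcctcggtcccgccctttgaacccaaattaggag
The first base of the match lies 49 bases before the Blvra start, 151 before the Flvcr1 start and 160 before the Lrp1 start. None of these 3 genes was called higher in any comparison with 0 h. A match is a description of letters and not of binding.

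Around these 9 genes the heme pathway was read from lists of related genes. Of 12 shared targets of BACH1 and NRF2, all compared, 6 were called higher and 0 lower in the nucleus at 12 h (median log2 ratio 1.04), beside 7.66% and 6.89% of all genes, and 3 and 0 at 24 h (0.55), beside 7.93% and 5.73%. In the cytoplasm 5 were higher and 0 lower at each time (medians 0.61 and 0.69), beside 11.9% and 8.65% of all genes at 12 h and 11.3% and 5.78% at 24 h. These shares over all genes stand beside the lists that follow too. Slc7a11, the cystine importer, was at 504 normalised CPM in the nucleus at 0 h, 3299 at 12 h and 2376 at 24 h, log2 ratios of 2.71 and 2.24. Srxn1, which repairs peroxiredoxins, was at a nuclear log2 ratio of 2.25 at 12 h and 1.69 at 24 h, and at 1.69 and 1.07 in the cytoplasm. G6pdx, which makes NADPH, was at 2.07 and 1.93 in the nucleus and at 1.23 and 1.19 in the cytoplasm. Me1, the malic enzyme, was at 1.12 in the nucleus at 12 h and at 4.27 in the cytoplasm, where it had 0.18 CPM before treatment. In the cytoplasm Me1 passed the minimum level for a comparison only through treated groups. The iron exporter Slc40a1 and the ferritin genes Fth1 and Ftl1, members of the same list, lay under 2-fold in all 4 comparisons.

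**Figure D5:**
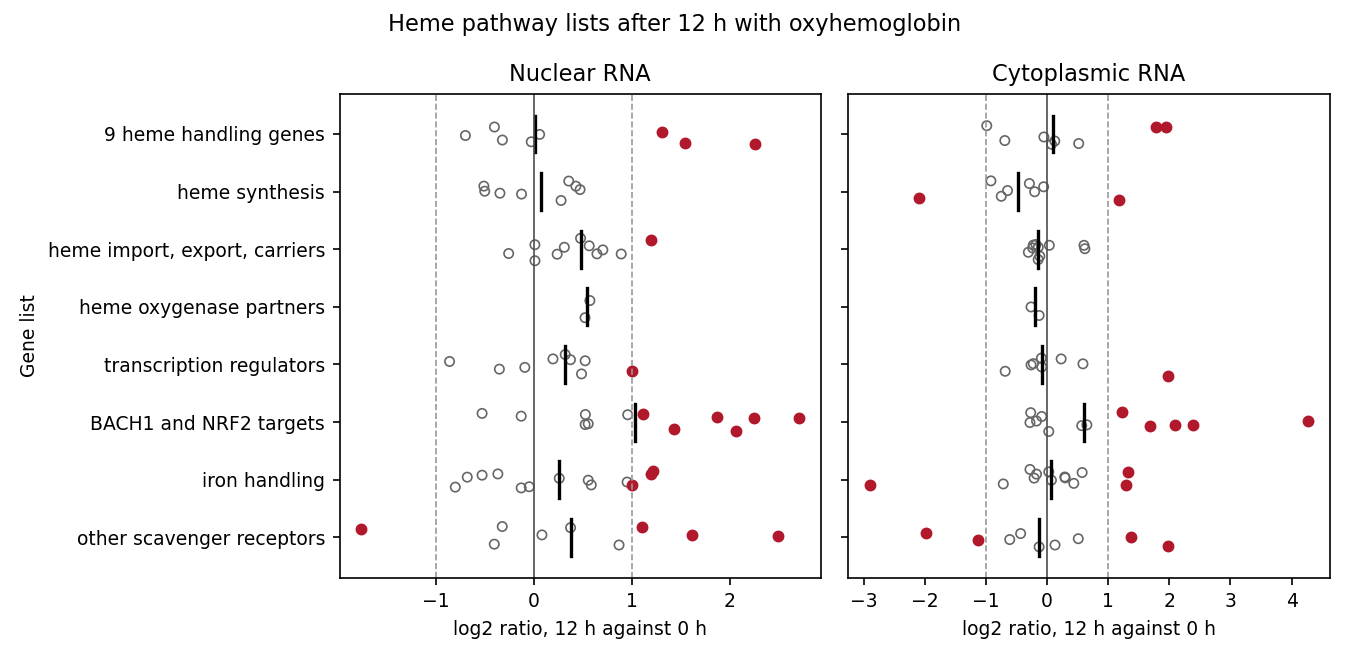
Log2 ratios at 12 h against 0 h of the 9 heme handling genes and of 7 lists of related genes in nuclear (left) and cytoplasmic (right) RNA, with different x ranges. Points are genes, filled where called at 2-fold (dashed lines), and black bars are list medians; the BACH1 and NRF2 targets have a median of 1.04 in the nucleus and 0.61 in the cytoplasm.

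Of 9 genes of heme synthesis, 8 were compared at 12 h: 0 were called in the nucleus, and 1 was higher and 1 lower in the cytoplasm, near the shares of 11.9% and 8.65% over all genes, with medians of 0.08 and −0.47. Alas1, the rate-limiting enzyme outside red cells, was at a cytoplasmic log2 ratio of 1.18 at 12 h and 1.16 at 24 h, from 1.64 CPM at 0 h. Of 14 genes for heme import, export and carriers, 11 were compared in the nucleus and 1 was higher at 12 h, and none of the 10 compared in the cytoplasm was called then. Hp, which encodes haptoglobin, was at a nuclear log2 ratio of 1.20 at 12 h and −0.12 at 24 h, and at −1.02 in the cytoplasm at 24 h. Hebp1, a heme-binding protein, was at 1.09 in the cytoplasm at 24 h. Por, the reductase that feeds electrons to heme oxygenase, and Rnf139 were the 2 genes compared of 4 heme oxygenase partners, and neither was called.

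Among 12 regulators that respond to heme or stress, 1 of 9 compared was higher in the nucleus at 12 h and 1 of 8 in the cytoplasm, and none was lower. Nr1d1, which encodes the heme-binding receptor REV-ERBα, was at nuclear log2 ratios of 1.00 and 1.19, and Maff, a small MAF partner, at cytoplasmic ratios of 1.98 and 1.34. Nfe2l2, the gene of NRF2, was at 0.37 in the nucleus and −0.26 in the cytoplasm at 12 h. Of 15 iron handling genes, 13 were compared: 3 were higher and 0 lower in the nucleus at 12 h, beside 7.66% and 6.89% of all genes. In the cytoplasm 2 were higher and 1 lower, near the 11.9% and 8.65% over all genes. The iron importer Slc11a2 was at 1.22 and 1.11 in the nucleus and at 1.33 and 1.07 in the cytoplasm. Tfrc, the transferrin receptor, was at 1.30 and 1.12 in the cytoplasm, Pcbp1, an iron chaperone, at 1.19 and 1.23 in the nucleus, and Ncoa4, the ferritin autophagy receptor, at −1.23 in the cytoplasm at 24 h.

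Other scavenger receptors gave a mixed picture beside Lrp1. Of 12 genes, 9 were compared, and at 12 h 3 were higher and 1 lower in the nucleus, beside 7.66% and 6.89% of all genes, and 2 higher and 2 lower in the cytoplasm, beside 11.9% and 8.65%. At 24 h 1 was higher and 1 lower in each fraction. Msr1, the class A scavenger receptor, was at 37.0 normalised CPM in the nucleus at 0 h and 208 at 12 h, a log2 ratio of 2.49. Lrp8, a receptor for reelin, was at 1.11 in the nucleus at 12 h. Scarb2, a lysosomal membrane protein, was at −1.13 in the cytoplasm at 12 h, the same direction as Lrp1.

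The genes whose pattern over the 6 groups was most like that of Hmox1 were sought among 6157 genes with at least 5 CPM in every group. The measure was the root mean square difference of log2 levels, each gene centred on its own mean. It was 0.08 for Marcks, a substrate of protein kinase C, 0.12 for Hsd17b7, a sterol synthesis enzyme, 0.17 for Odc1, the first enzyme of polyamine synthesis, 0.18 for Gm21399 and 0.21 for Ehd1, an endocytic recycling protein. Marcks was at log2 ratios of 2.27 in the nucleus and 1.79 in the cytoplasm at 12 h, where Hmox1 was at 2.26 and 1.77. The scaling of the groups cancels in this measure, so the order by total counts is the same and is no check of it. Among the 9 heme genes themselves, Slc48a1 was the nearest to Hmox1, at 0.56.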

How the data were processed

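The 18 libraries were grouped by fraction and hours of treatment from their labels. HISAT2 2.2.0, featureCounts, DESeq2 and the build GRCm38 are named in the submitters' processing notes, and neither an annotation release nor a strand setting is given in the sources used here. Estimated counts per gene were deposited by the authors as averages over 3 libraries: 3 times every value was whole within 0.001, and 28.1% to 34.9% of values were not whole themselves. The deposited TPM values were made by the authors from these means and 1 length per gene, which for 97.96% of 6652 genes was within 0.1% of its annotated transcripts' lengths added together. With group means alone, the planned test on replicated counts gave way to ratios with counting intervals, as planned for that case.

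Scaling used a trimmed mean of M-values, taken over compared genes (30% of log ratios and 5% of mean levels trimmed at each end), each fraction by itself for the time comparisons and all 6 groups together for nuclear-to-cytoplasmic ratios. A gene was compared where 1 group reached the equivalent of a mean count of 10 at the median depth. Intervals at 95% came from reads summed over the 3 libraries (exact Clopper-Pearson; for shifts between fractions, a normal approximation). A call needed 2-fold and an interval without 0. Reads without molecular identifiers are not independent molecules. Versions were matplotlib 3.10.9, scipy 1.17.1, pandas 2.3.3, numpy 2.4.6 and Python 3.11.15. The ratios within a fraction were tested on simulated reads with counting error only and as many changes up as down. That simulation did not cover differences between libraries, nuclear-to-cytoplasmic ratios or their changes. All columns used were group means.

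All 9 genes are named. From each other list up to 4 genes are named, those called in a comparison with 0 h with a mean of at least 5 CPM, by the size of the ratio; Fth1, Ftl1, Slc40a1, Por, Rnf139 and Nfe2l2 are named besides, and 1 gene that the rule names is not reported here. The members and lists were chosen with earlier results of these data known. Alternatives were other scalings, units, filters, thresholds and lengths.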

Additional observations from a re-analysis of the deposited data

Results flagged for a closer look

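In 4 of the 8 genes compared the difference from 0 h was not the same in the nucleus and in the cytoplasm by 2-fold or more, beyond counting error, at 12 h, at 24 h or at both. By time, 3 of 8 were called in this ratio at 12 h, beside 6.90% higher and 7.44% lower of all genes. At 24 h it was also 3 of 8, beside 5.79% and 9.18%. The share of all genes called at either time is not given, and no replicate check stands behind these values. For Hmox2 the log2 nuclear-to-cytoplasmic ratio changed by −2.23 at 12 h and by −3.50 at 24 h: the cytoplasmic reads were more numerous after treatment and the nuclear ones were not. This rests on 8 cytoplasmic reads at 0 h. For Blvrb it changed by 1.41 at 12 h, where the nuclear level was higher and the cytoplasmic one was not. For Slc48a1 it changed by 1.07 at 12 h and 1.20 at 24 h, the nuclear level being further above 0 h than the cytoplasmic one. For Flvcr1 it changed by −1.17 at 24 h, with a lower nuclear and a higher cytoplasmic level. By total counts the change of Slc48a1 was 0.87 at 12 h and 0.86 at 24 h, short of 2-fold. The change of Hmox2 at 12 h was −0.62 on log2(TPM + 1) values and −1.43 on log2(TPM + 0.1) values.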

How the results depend on the processing

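No paired analysis was possible because the deposited columns are group means, and for the same reason leaving out each replicate in turn was not run. Across all alternatives Hmox1 stayed at or above a log2 ratio of 1.01 in the 4 comparisons with 0 h, and nuclear Slc48a1 at or above 1.12. By total counts the median gene moved by −0.20 and −0.30 in the nucleus at 12 and 24 h, and the share of called genes that were higher went from 52.6% to 31.9% and from 58.1% to 27.5%. For the nuclear-to-cytoplasmic ratio at 0 h the median moved by 1.36 and that share went from 59.9% to 78.9% (from 60.1% to 80.3% at 12 h and from 59.9% to 78.9% at 24 h), and the ratio of Lrp1, −1.24, became 0.13, or 0.42 with the most abundant gene left out too. The cause was not tested. For the change of the nuclear-to-cytoplasmic ratio the share went from 48.1% to 28.2% at 12 h and from 38.7% to 10.1% at 24 h, while it was 62.5% and 53.0% with the trimmed mean over all genes.

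Numbers called among those of the 9 genes that were compared, higher and lower together, moved as follows. With median-of-ratios size factors, or with the trimmed mean taken over all genes (added after seeing the data), 5 rather than 3 were called for the change of the nuclear-to-cytoplasmic ratio at 24 h. Of all 17850 genes, 1410 were higher and 1369 lower with the first, and 1494 and 1325 with the second. On log2(TPM + 1) 0 rather than 1 was called in the cytoplasm at 24 h against 12 h. Of all 11751 genes, 112 were higher and 51 lower there. On log2(TPM + 0.1) 4 rather than 2 were called in the cytoplasm at 24 h, and 5 rather than 3 for the change of the ratio at 12 h. In the cytoplasm Hmox1 and Hmox2 were higher, and Bach1 and Lrp1 lower. Of all 11751 genes compared there, 559 were higher and 2381 lower in that unit. For the change of the ratio at 12 h it was 4330 and 1581 of 17902. A minimum 5 times stricter drops Hmox2, and in the cytoplasm Blvrb too, and so has fewer genes. With it 1 was called in the cytoplasm at 12 h, 1 at 24 h and 0 at 24 h against 12 h. Over all genes at that minimum, 557 were higher and 489 lower of 6918 at 12 h. It was 445 and 359 of 6917 at 24 h, and 53 and 54 of 6917 at 24 h against 12 h. Genes with at least 60% single-transcript sequence (added after seeing the data), which also drops Hmox2 and Flvcr1, gave the same 1, 1 and 0, and 1 for the change of the ratio at 24 h. Of all genes with that share, 989 were higher and 456 lower of 6632 in the cytoplasm at 12 h. It was 939 and 276 of 6627 at 24 h, and 240 and 113 of 6630 at 24 h against 12 h. For the change of the ratio at 24 h it was 614 and 995 of 10719. At 1.5-fold 4 were called in the nucleus at 24 h, 4 and 5 in the cytoplasm at 12 and 24 h, and 6 and 6 for the change of the ratio. Over all genes at that threshold, 2983 were higher and 2485 lower of 17295 in the nucleus at 24 h. In the cytoplasm it was 2361 and 2246 of 11751 at 12 h, and 2306 and 1723 of 11746 at 24 h. For the change of the ratio it was 3243 and 1858 of 17849 at 12 h, and 2985 and 2366 of 17850 at 24 h. Hmox2 rests on few reads in the cytoplasm (8 at 0 h). Cd163 had no reads and so no value, and the cause was not tested.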

Other observations

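Several genes of the lists fell outside the rule for naming and were picked out after their values were seen. Ppox, which carries out the next-to-last step of heme synthesis, was at log2 ratios of −2.10 (interval −2.79 to −1.47) and −1.64 (−2.17 to −1.13) in the cytoplasm at 12 and 24 h, and at −1.29 in the nucleus at 24 h. Its cytoplasmic mean counts were low, at 48.0, 8.0 and 13.7 at 0, 12 and 24 h, and 11.5% of its exonic bases lie in only 1 transcript. Mrc1, the macrophage mannose receptor, was lower in all 4 comparisons with 0 h, at −1.76 and −1.89 in the nucleus and −1.97 and −2.06 in the cytoplasm, while Msr1 was higher in all 4. Steap3, an iron reductase, was at −2.89 and −1.44 in the cytoplasm and at −0.68 and −0.79 in the nucleus. Aco1, an iron regulatory protein, was at 0.95 and 1.12 there. Nqo1, a quinone reductase, was at 1.88 in the nucleus at 12 h and at 2.38 and 3.55 in the cytoplasm at 12 and 24 h. Gclm, of glutathione synthesis, was at a nuclear ratio of 1.43 at 12 h and a cytoplasmic one of 0.65.

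Among pairs of the 8 genes with reads, Blvra and Bach1 had the most similar patterns over the 6 groups (root mean square difference 0.34 log2 units), followed by Blvrb and Lrp1 at 0.55 and Hmox1 and Slc48a1 at 0.56. On the same measure Hmox1 and its paralogue Hmox2 differed by 1.99. The measure takes in the level difference between the fractions as well as the differences from 0 h. At 12 h the cytoplasmic log2 ratio to 0 h was 0.07 for Blvra but −0.69 for Bach1. The nuclear one was 1.31 for Blvrb but −0.03 for Lrp1, so a small value does not mean a like response.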
